A study of Cavia porcellus with 44 samples.

Results

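The enzymes described here carry out phase I and phase II xenobiotic metabolism in the liver. Members were all genes among the deposited variance-stabilized values whose human orthologue symbol began with CYP (without CYP51A1), UGT, GST, SULT, FMO, CES, ADH, ALDH, AKR, EPHX or NQO and a family number where one follows. NAT1, NAT2 and AOX1 were also in the rule and were not among those symbols. The rule took 82 of 7747 symbols. Symbols with equal counts in every animal were taken once, which left 60 members of 7146 distinct profiles. They comprised 19 cytochromes P450 (CYP), 11 aldehyde dehydrogenases (ALDH), 7 glutathione S-transferases (GST), 6 aldo-keto reductases (AKR), 3 carboxylesterases (CES), 3 epoxide hydrolases (EPHX), 3 flavin monooxygenases (FMO), 3 UDP-glucuronosyltransferases (UGT), 2 alcohol dehydrogenases (ADH), 2 sulfotransferases (SULT) and 1 quinone reductase (NQO2). A further 13 symbols that matched the rule had a total of under 200 counts over all animals and were not tested. Well-known liver enzymes such as CYP2E1, NQO1 and the CYP2C and GSTA families were not among the symbols of the deposited counts, so they could not be analysed here.

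Liver RNA was sequenced at week 32 from 44 female Hartley guinea pigs, a species that, like humans, cannot make vitamin C (vitC), and each animal was 1 library. LFH animals (n = 8) had the low fat diet with 3.8% fat, no added cholesterol or sucrose and 2000 mg vitC/kg feed throughout, and the labels call them healthy. HFH animals (n = 8) had the high fat diet with 20% fat, 0.35% cholesterol, 15% sucrose and 2000 mg vitC/kg feed throughout. All other animals had the high fat diet with 50 mg vitC/kg for 16 weeks, and were then kept on it (HFL/HFL, n = 10), raised to 2000 mg vitC/kg (HFL/HFH, n = 6), or moved to the low fat diet with 50 (HFL/LFL, n = 6) or 2000 mg vitC/kg (HFL/LFH, n = 6). The labels give the HFH, HFL/HFL and HFL/HFH groups as non-alcoholic steatohepatitis (NASH) and the switched groups as fatty liver disease. Each low fat group was pair-fed to a high fat group, so fat, cholesterol, sucrose and the mode of feeding changed together and cannot be told apart. "High fat" below stands for that whole diet.

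Phase I enzymes expose or add a reactive group on a lipophilic compound, by oxidation (CYP, FMO, ADH, ALDH), reduction (AKR, NQO) or hydrolysis (CES, EPHX). Phase II enzymes then attach a polar molecule, glucuronic acid by UGT, sulfate by SULT or glutathione by GST, so that the product can leave in bile or urine. The hepatocyte is the main site of both phases, and many of the same enzymes also handle steroids, bile acids, retinoids and the aldehydes of amino acid breakdown.

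Total counts ranged from 21133807 to 35427724 per animal (median 25652393), and levels are given as CPM, the share of an animal's TMM-scaled library. In these libraries 3 counts came to between 0.0626 and 0.170 CPM, which was taken as the detection floor and reflects only counting error. Levels are compared between animals for the same gene, because transcript lengths of this genome build were not at hand, and 1 split of the members by mean CPM is therefore not corrected for length. All log2 fold changes are from edgeR's quasi-likelihood test over 7750 genes, have a standard error (SE) that is given for single values or as a range, and are called where the Benjamini-Hochberg adjusted p is under 0.05. The files give human symbols for guinea pig genes. One row can therefore stand for several human genes (ADH1A, 1B and 1C in 1 row), and several guinea pig genes can share 1 human symbol, with a number added after a point (CYP3A4, CYP3A4.1 and CYP3A4.2). How reads that match more than 1 of such near-identical copies were shared out is not stated, so the split within CYP3A, CYP2A and the CES copies is uncertain.

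On the high fat diet more of the xenobiotic enzymes were lower than higher, led by CYP1A2, CYP3A4.1 and AKR1D1, while CYP1B1, EPHX3, AKR1B10 and GSTP1 were higher. Between HFH and LFH, 40 of 60 members (66.7%) were called, against 49.3% of all genes tested. Of these, 31 were lower in HFH, where 21.7% of all genes were, and 9 were higher, where 27.7% of all genes were. The median log2 fold change of the members was -0.57, and that of all genes was 0.06. Between HFL/HFL and HFL/LFL, which had the same feed for 16 weeks and low vitC throughout, 33 members were called (25 lower and 8 higher in HFL/HFL), against 37.8% of all genes (18.1% lower and 19.7% higher). Between HFL/HFH and HFL/LFH, with high vitC after the switch, 34 members were called (27 lower and 7 higher in HFL/HFH), against 35.9% of all genes (16.5% lower and 19.4% higher). Median log2 fold changes of the members were -0.38 and -0.58 in these comparisons, and those of all genes were 0.03 and 0.01.

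These 3 comparisons of feed share no animals. In the same direction in all 3, 26 members were called (25 to 27 under every alternative tried and with any 1 animal left out), against 23.9% of all genes. Of the 26, 22 were lower on the high fat diet (36.7% of members, 10.5% of all genes) and 4 were higher (6.67% of members, 13.4% of all genes). No member was called in opposite directions, 14 were called in none of the 3 comparisons (38.6% of all genes), and the other 46 in at least 1 (61.4% of all genes). CPM of the 2 groups did not overlap for 23 members between HFH and LFH (16.9% of all genes), 11 between HFL/HFL and HFL/LFL (9.9%) and 21 between HFL/HFH and HFL/LFH (16.2%). For 9 members the groups did not overlap in any of the 3 comparisons, where 5.82% of all genes did so in 1 direction. Taking all 20 animals that ended on the low fat diet and all 24 that ended on the high fat diet, 8 members did not overlap. CYP1A2, CYP2B6, CYP3A4.1, CYP3A4.2, ADH1A and UGT1A6 were among those higher in every low fat animal than in any high fat animal, and GSTP1 was lower. The 8 were 13.3% of the members, and 3.96% of all genes were without such overlap.

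**Figure D1:**
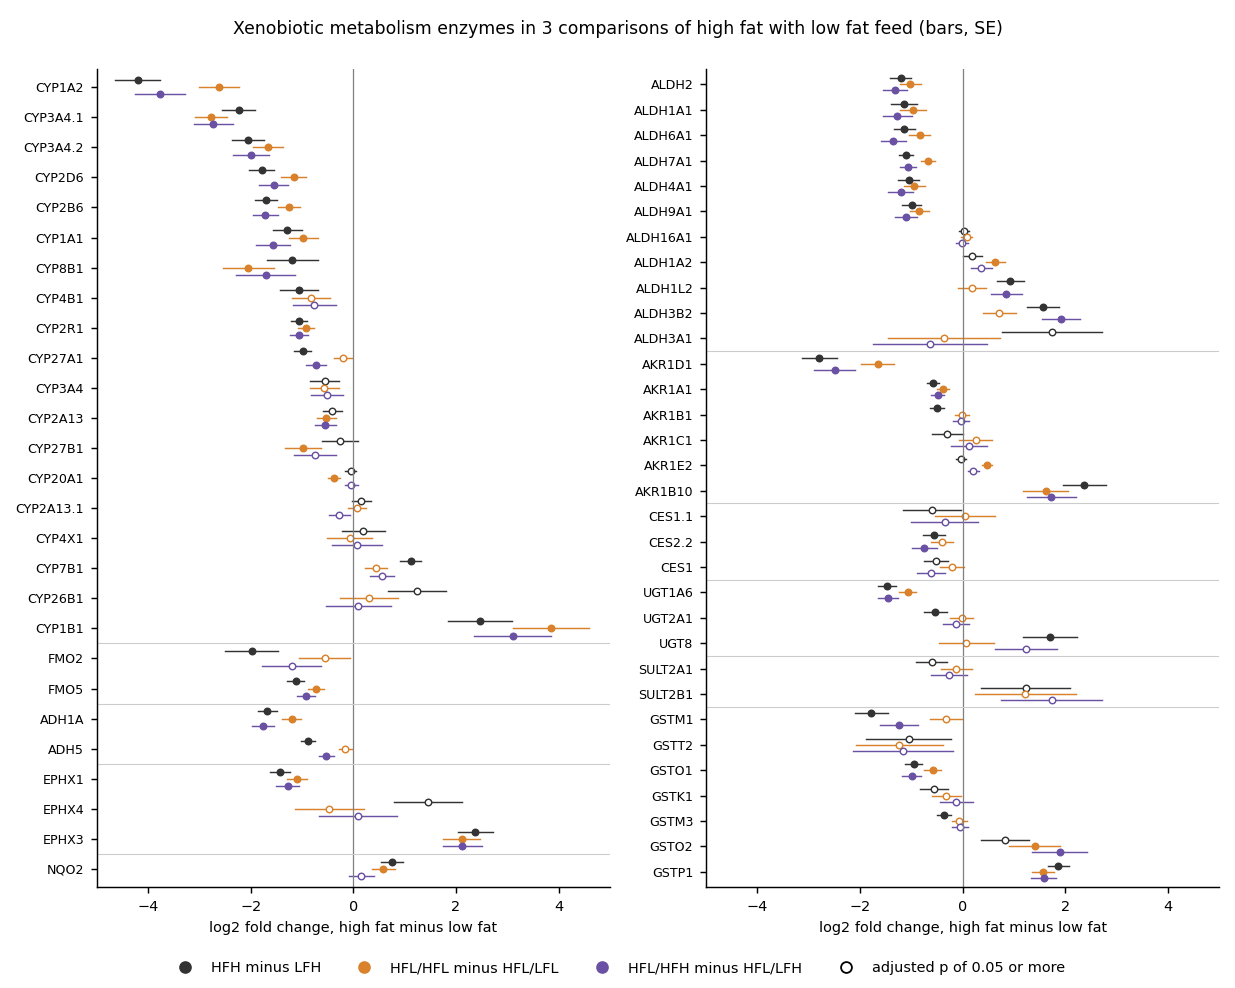
Log2 fold change of 59 of the 60 members in the 3 feed comparisons (x axis, high fat minus low fat, points with SE bars; y axis, members grouped by family). Filled points have an adjusted p under 0.05, and more filled points lie left of 0 than right of it, with CYP1A2 at -4.20, -2.61 and -3.76, and with CYP1B1, EPHX3, AKR1B10 and GSTP1 to the right in all 3.

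The liver tissue as a whole changed with the feed, and these are bulk samples, in which fewer cells of a type and less RNA per cell cannot be told apart. Of 9 hepatocyte markers tested, 8 were lower in HFH than in LFH (median log2 fold change -1.16). Their summed level had a median of 193683 CPM in LFH (range 137838 to 267257) and 88507 CPM in HFH (range 35792 to 117835). All 4 cholangiocyte markers were higher in HFH (median log2 fold change 3.74), with summed levels of 146 to 382 CPM in LFH and 772 to 1347 CPM in HFH. In HFL/HFL 8 hepatocyte markers were lower and in HFL/HFH 5 were, and all 4 cholangiocyte markers were higher in both, against the low fat group of the same vitC level. Of 7 stellate cell and fibroblast markers 4 were higher and 1 was lower in HFH, 3 and 2 in HFL/HFL, and 3 and 1 in HFL/HFH. All genes had 27.7% higher and 21.7% lower in HFH, 19.7% and 18.1% in HFL/HFL, and 19.4% and 16.5% in HFL/HFH. Of 5 markers of pericentral hepatocytes, where many xenobiotic enzymes are concentrated, 4 were lower in HFH, 3 in HFL/HFL and 3 in HFL/HFH, and 1 (SLC1A4) was higher in each. The part of these shifts in the results for the enzymes was not tested.

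CYP1A2, which oxidizes caffeine and aromatic amines, had the largest fall of the members between HFH and LFH and between HFL/HFH and HFL/LFH, and was behind only CYP3A4.1 between HFL/HFL and HFL/LFL. It ranged from 2397 to 4172 CPM in LFH (median 3035) and from 55.3 to 307 CPM in HFH (median 192). In HFL/LFH it was at 2629 to 5059 CPM (median 2998) and in HFL/LFL at 1174 to 2986 CPM (median 2077), which overlapped the LFH range. The HFL/HFH animals were at 79.7 to 788 CPM (median 145) and the HFL/HFL animals at 94.7 to 666 CPM (median 380). No high fat animal reached the lowest low fat animal. The log2 fold change was -4.20 between HFH and LFH (SE 0.44, edgeR adjusted p = 1.23e-10), or 18.4-fold lower, and it was -3.76 (SE 0.49) between HFL/HFH and HFL/LFH and -2.61 (SE 0.39) between HFL/HFL and HFL/LFL. CYP1A1, the close relative that is induced by polycyclic aromatic hydrocarbons, fell less: it ranged from 638 to 1773 CPM in LFH (median 1429) and from 192 to 1028 CPM in HFH (median 398), and these ranges overlapped. Its log2 fold changes were -1.29 (SE 0.28), -0.97 (SE 0.28) and -1.57 (SE 0.33) in the order HFH against LFH, HFL/HFL against HFL/LFL, and HFL/HFH against HFL/LFH, an order kept below.

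The CYP3A subfamily metabolizes a large share of prescribed drugs as well as steroids. Its 3 rows did not move alike. CYP3A4.1 was at 1215 to 3507 CPM in LFH (median 1797), 1393 to 3580 CPM in HFL/LFH (median 2335) and 1310 to 3644 CPM in HFL/LFL (median 2909). The high fat groups were all lower, with 102 to 941 CPM in HFH (median 380), 152 to 611 CPM in HFL/HFH (median 376) and 197 to 608 CPM in HFL/HFL (median 380). Log2 fold changes of CYP3A4.1 were -2.23 (SE 0.32), -2.77 (SE 0.32) and -2.73 (SE 0.38), between 4.7-fold and 6.83-fold lower. CYP3A4.2 fell by 2.05, 1.67 and 1.99 on the log2 scale (SE 0.30 to 0.35), with 1905 to 6297 CPM over the low fat animals and 335 to 1647 CPM over the high fat animals. The row named CYP3A4 was not called in any of the 3: its levels of 475 to 1861 CPM on low fat and 312 to 1309 CPM on high fat overlapped widely, with log2 fold changes of -0.56 (SE 0.28), -0.57 (SE 0.28) and -0.51 (SE 0.32).

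CYP2B6 and CYP2D6, which clear many drugs, were also lower in all 3 comparisons. CYP2B6 ranged from 1881 to 4623 CPM on low fat (median 3089) and from 541 to 1658 CPM on high fat (median 1033). Its log2 fold changes were -1.70, -1.25 and -1.72 (SE 0.21 to 0.25). CYP2D6 ranged from 4287 to 7389 CPM in LFH and from 885 to 2722 CPM in HFH, a log2 fold change of -1.79 (SE 0.25, edgeR adjusted p = 8.39e-08). In HFL/LFL and HFL/HFL the ranges of CYP2D6 overlapped (2912 to 5996 and 758 to 3309 CPM), with a log2 fold change of -1.16 (SE 0.24). CYP2A13, the row that also stands for CYP2A6, the nicotine oxidase, had log2 fold changes of -0.41 (SE 0.18), -0.53 (SE 0.18) and -0.55 (SE 0.21), of which the last 2 were called and lost their call in 2 of 25 and 9 of 21 alternative fits. Its second copy CYP2A13.1 was called in none.

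**Figure D2:**
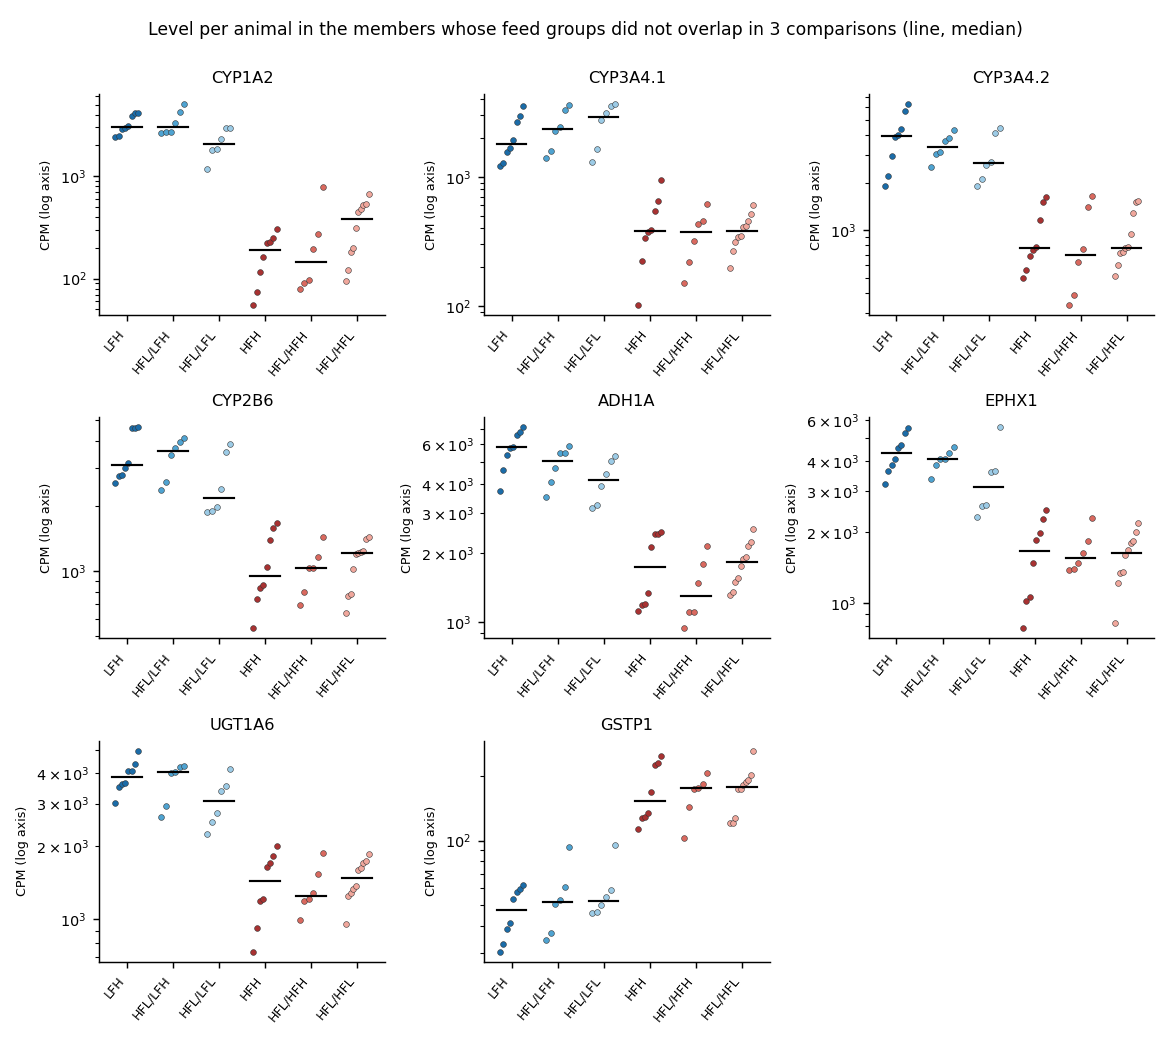
CPM per animal (y axis, log scale) in the 6 groups (x axis) for 8 of the 9 members whose 2 groups did not overlap in any of the 3 feed comparisons. Points are animals sorted by value within a group, lines are medians, and blue groups ended on low fat and red groups on high fat; CYP1A2 had group medians of 2077 to 3035 CPM on low fat and 145 to 380 CPM on high fat, and GSTP1 was the reverse.

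Other P450 members act mainly on sterols, vitamins and fatty acids. CYP8B1, the sterol hydroxylase of cholic acid synthesis, varied widely within each group (5.14 to 67.8 CPM in LFH and 3.13 to 26.0 CPM in HFH). It was lower in all 3 comparisons (log2 fold changes -1.19, SE 0.49; -2.05, SE 0.50; -1.71, SE 0.58), but the first of these had an edgeR adjusted p of 0.0427, and the call was lost in 13 of 25 alternative fits, 10 of which left out 1 animal (log2 fold change -1.48 to -0.81). CYP2R1, which makes the circulating form of vitamin D in the liver, was lower by 1.06, 0.92 and 1.06 on the log2 scale (SE 0.15 to 0.18), from a median of 36.5 CPM in LFH to 16.4 CPM in HFH. CYP27A1, a mitochondrial sterol hydroxylase of bile acid synthesis, was lower in HFH (log2 fold change -0.99, SE 0.17) and HFL/HFH (-0.73, SE 0.19), and HFL/HFL and HFL/LFL differed by -0.20 (SE 0.17, edgeR adjusted p = 0.36). The test of whether its effect of feed differed between vitC levels gave 0.52 (SE 0.26, edgeR adjusted p = 0.60). CYP7B1, an oxysterol hydroxylase, was higher in HFH (11.2 to 19.97 CPM) than in LFH (4.47 to 10.3 CPM), without overlap, with a log2 fold change of 1.11 (SE 0.20). Its differences in the other 2 comparisons, 0.44 (SE 0.21) and 0.56 (SE 0.23), were not called. CYP4B1, a fatty acid hydroxylase, was called lower in HFH (-1.06, SE 0.37, edgeR adjusted p = 0.0146), a call that was lost without LFH animal 92. It differed by -0.83 (SE 0.37) and -0.76 (SE 0.42) in the others, which were not called. CYP27B1, which activates vitamin D, and CYP20A1 were called lower between HFL/HFL and HFL/LFL and in neither other comparison (-0.98, SE 0.36; -0.37, SE 0.12). For CYP27B1 the call was lost without HFL/LFL animal 53 (log2 fold change -0.55).

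CYP1B1 ran against most of its family. It metabolizes oestrogens and retinoids and is known mainly from cells other than hepatocytes. It was low on low fat, with some animals at the counting floor: 0 to 3.40 CPM in LFH (median 0.754, 2 animals at 3 counts or fewer), 0 to 3.34 CPM in HFL/LFH and 0 to 2.21 CPM in HFL/LFL. On high fat it was at 2.14 to 12.8 CPM in HFH (median 6.26), 3.13 to 16.0 CPM in HFL/HFH and 3.98 to 22.4 CPM in HFL/HFL (median 9.45). Its log2 fold changes were 2.47 (SE 0.63), 3.85 (SE 0.74) and 3.10 (SE 0.74). CYP26B1, which breaks down retinoic acid, and CYP4X1 were called in none of the 3.

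FMO enzymes oxidize nitrogen and sulfur in drugs and food compounds. FMO5 ranged from 824 to 1266 CPM in LFH (median 1023) and from 299 to 614 CPM in HFH (median 499), without overlap. It fell by 1.13, 0.72 and 0.92 on the log2 scale (SE 0.16 to 0.18). FMO2 was low throughout (at most 2.003 CPM) and was called lower in HFH (-1.98, SE 0.51), with -0.56 (SE 0.50) and -1.201 (SE 0.58) in the others, not called.

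EPHX1, the microsomal hydrolase that opens the epoxides formed by P450, was lower in all 3 comparisons, without overlap between the paired groups. It ranged from 3218 to 5532 CPM in LFH and from 782 to 2473 CPM in HFH, with log2 fold changes of -1.43 (SE 0.20), -1.10 (SE 0.20) and -1.28 (SE 0.23). EPHX3 went the other way at a low level, from 0.410 to 1.62 CPM in LFH to 2.17 to 5.36 CPM in HFH, with log2 fold changes of 2.37 (SE 0.34), 2.11 (SE 0.36) and 2.12 (SE 0.39). EPHX4, at 0 to 1.17 CPM, was not called.

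ADH1A, the ethanol dehydrogenase (1 row for ADH1A, ADH1B and ADH1C), ranged from 3727 to 7090 CPM in LFH (median 5808) and from 1120 to 2489 CPM in HFH (median 1741). It was lower by 1.67, 1.2 and 1.76 on the log2 scale (SE 0.19 to 0.22), and every low fat animal was above every high fat animal. ADH5, which oxidizes formaldehyde bound to glutathione, fell by 0.88 in HFH and by 0.53 in HFL/HFH, and HFL/HFL and HFL/LFL differed by -0.16 (SE 0.13, edgeR adjusted p = 0.357). The test of whether the effect of feed differed between vitC levels called no ADH member (smallest edgeR adjusted p = 0.605).

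Aldehyde dehydrogenases remove the aldehydes made by ADH and by lipid and amino acid breakdown. Of 11, 6 were lower in all 3 comparisons, all with log2 fold changes between -0.68 and -1.35. ALDH2, the mitochondrial acetaldehyde dehydrogenase, ranged from 2856 to 5512 CPM in LFH and from 1135 to 2410 CPM in HFH (log2 fold changes -1.21, -1.02 and -1.32, SE 0.20 to 0.24). ALDH1A1, which makes retinoic acid from retinal, had medians of 8012 CPM in LFH and 3381 CPM in HFH, with overlap (-1.15, -0.96 and -1.27, SE 0.25 to 0.29). The other 4 act in amino acid and carnitine metabolism: ALDH4A1 in proline breakdown (-1.05, -0.94 and -1.21), ALDH6A1 in valine breakdown (-1.13, -0.84 and -1.35), ALDH7A1 in lysine breakdown (-1.10, -0.68 and -1.06) and ALDH9A1 in carnitine synthesis (-0.99, -0.84 and -1.10), with SE of 0.13 to 0.24. ALDH1L2, of mitochondrial folate metabolism, was instead higher in HFH (0.93, SE 0.26) and in HFL/HFH (0.85, SE 0.30, lost without HFL/HFH animal 19 or 22 or HFL/LFH animal 33 or 43), with 0.18 (SE 0.27) between HFL/HFL and HFL/LFL. ALDH3B2 was higher in the same comparisons (1.56, SE 0.31, and 1.92, SE 0.37) at 0.418 to 3.50 CPM. It differed by 0.72 between HFL/HFL and HFL/LFL, not called, where HFL/LFL animal 44 was at 3.14 CPM and the next highest at 0.912 CPM. ALDH1A2, another retinal dehydrogenase, was higher between HFL/HFL and HFL/LFL (0.63, SE 0.19), with 0.19 in HFH and 0.36 in HFL/HFH, not called. ALDH16A1 was at 1632 to 2526 CPM over all animals with log2 fold changes of at most 0.08 in size, and ALDH3A1, at 0 to 1.72 CPM, was not called.

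Among aldo-keto reductases, AKR1D1, the reductase of bile acid and steroid hormone metabolism, differed the most. It ranged from 423 to 851 CPM in LFH (median 611) and from 40.0 to 132 CPM in HFH (median 93.1), a log2 fold change of -2.79 (SE 0.34, edgeR adjusted p = 6.73e-09), or 6.93-fold lower. It was at 300 to 591 CPM in HFL/LFH and 20.6 to 174 CPM in HFL/HFH (-2.49, SE 0.39), and at 188 to 556 CPM in HFL/LFL and 48.3 to 195 CPM in HFL/HFL, where the ranges overlapped (-1.66, SE 0.32). AKR1A1, which reduces glucuronate on the route that leads to vitamin C in species that make it, was lower by 0.57, 0.39 and 0.49 on the log2 scale (SE 0.12 to 0.13). AKR1B10, a reductase of retinal and lipid aldehydes, was higher in all 3 comparisons: it was at 0.314 to 2.64 CPM in LFH and 2.39 to 11.0 CPM in HFH (2.36, SE 0.42), and differed by 1.62 (SE 0.44) and 1.73 (SE 0.47) in the others. AKR1B1, the aldose reductase, was lower in HFH (-0.49, SE 0.14) and differed by -0.02 and -0.04 in the others, AKR1E2 was higher between HFL/HFL and HFL/LFL (0.47, SE 0.10), and AKR1C1, a hydroxysteroid dehydrogenase, was called in none.

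Carboxylesterases, which cleave ester drugs and lipids, were called lower in 1 of 3 members in HFH, 0 in HFL/HFL and 1 in HFL/HFH. CES1 had medians of 8412 CPM in LFH and 5902 CPM in HFH with overlapping ranges and was called in none (log2 fold changes -0.51, -0.21 and -0.61, SE 0.23 to 0.27). CES2.2 was lower in HFH (-0.55, SE 0.21, edgeR adjusted p = 0.0275) and HFL/HFH (-0.75, SE 0.25), and the first call was lost in 7 of 25 alternative fits (-0.65 to -0.44). NQO2, a quinone reductase, was higher in HFH (0.76, SE 0.21) and HFL/HFL (0.58, SE 0.22), with 0.16 (SE 0.25) between HFL/HFH and HFL/LFH. The call in HFL/HFL was lost in 8 of 25 alternative fits (0.50 to 0.70).

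The phase II members were the UGT, GST and SULT enzymes. UGT1A6, which adds glucuronic acid to planar phenols, was lower in all 3 comparisons. It ranged from 3002 to 4955 CPM in LFH (median 3851), 2639 to 4286 CPM in HFL/LFH and 2242 to 4173 CPM in HFL/LFL. It ranged from 738 to 2004 CPM in HFH (median 1433), 995 to 1885 CPM in HFL/HFH and 955 to 1857 CPM in HFL/HFL. No high fat animal overlapped a low fat animal, and log2 fold changes were -1.47 (SE 0.17, edgeR adjusted p = 2.04e-09), -1.07 (SE 0.17) and -1.45 (SE 0.20). UGT2A1 (1 row with UGT2A3) was called lower in HFH (-0.54, SE 0.22, edgeR adjusted p = 0.0424), a call lost in 13 of 25 alternative fits (-0.73 to -0.41), and differed by -0.02 (SE 0.23) and -0.13 (SE 0.26) in the others. UGT8, which makes galactosylceramide rather than drug glucuronides, was called higher in HFH (1.70, SE 0.53) at 0.174 to 7.67 CPM over all animals. Its differences of 0.07 (SE 0.54) between HFL/HFL and HFL/LFL and 1.24 (SE 0.61) between HFL/HFH and HFL/LFH were not called, and the test of the difference between these 2 (-1.17, SE 0.80) had an edgeR adjusted p of 0.696.

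Glutathione S-transferases went both ways. GSTP1, the pi class enzyme, which in human liver is known more from bile duct cells than from hepatocytes, was at 30.6 to 62.2 CPM in LFH (median 47.6), 34.7 to 93.3 CPM in HFL/LFH and 45.99 to 95.6 CPM in HFL/LFL. It was at 113 to 247 CPM in HFH (median 152), 103 to 205 CPM in HFL/HFH and 120 to 261 CPM in HFL/HFL. Every high fat animal was above every low fat animal, and log2 fold changes were 1.86 (SE 0.21, edgeR adjusted p = 5.83e-10), 1.57 (SE 0.22) and 1.57 (SE 0.24). Cholangiocyte markers moved the same way in the same animals, with values given above, and their part in this was not tested. GSTM1, the mu class enzyme, ranged from 10138 to 21388 CPM in LFH (median 15964) and from 2227 to 6360 CPM in HFH (median 5130), a log2 fold change of -1.78 (SE 0.32). It was also lower in HFL/HFH than in HFL/LFH (-1.24, SE 0.36), and HFL/HFL and HFL/LFL differed by -0.32 (SE 0.32, edgeR adjusted p = 0.447), with HFL/LFL animals spread from 1266 to 12614 CPM. The test of whether the effect of feed differed between vitC levels called no GST member (smallest edgeR adjusted p = 0.606). GSTO1, the omega class enzyme, which also reduces dehydroascorbate, was lower by 0.96, 0.58 and 0.99 on the log2 scale (SE 0.16 to 0.19), from 1122 to 1609 CPM in LFH to 443 to 1104 CPM in HFH. GSTO2, its homologue, was at 0 to 2.69 CPM over all animals and was called higher in HFL/HFL (1.40, SE 0.49) and HFL/HFH (1.89, SE 0.54), the first of which was lost without HFL/LFL animal 53, 17, 68 or 13. GSTM3 fell by 0.36 in HFH (SE 0.14, edgeR adjusted p = 0.0247), a call lost in 4 of 25 alternative fits. The mitochondrial GSTK1 and the theta class GSTT2 were called in none, and neither were the sulfotransferases SULT2A1, which acts on bile acids and dehydroepiandrosterone (59 to 128 CPM in LFH and 23.3 to 112 CPM in HFH), and SULT2B1, which acts on cholesterol (0 to 1.25 CPM).

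The members were also split by mean CPM, which rises with transcript length as well as abundance. Of 33 members with a mean of at least 100 CPM, 20 (60.6%) were lower in all 3 feed comparisons and 1, GSTP1, was higher, where 26% of all genes at that level were lower and 9.86% were higher. Of 27 members under 100 CPM, 2 (7.41%, CYP2R1 and CYP8B1) were lower in all 3 and 3 (11.1%) were higher, near the 6.45% and 14.4% of all genes under 100 CPM. Their median log2 fold changes between HFH and LFH were -1.10 and 0.19. For shares of an animal's counts, symbols with equal counts were taken once in the total too. Together the members took a median of 8.06% of these counts in LFH (range 7.09% to 9.29%) and 4.92% in HFH (range 3.74% to 6.14%). The medians were 7.52% in HFL/LFH, 6.59% in HFL/LFL, 4.80% in HFL/HFL and 4.32% in HFL/HFH. This split by level was chosen after the levels were seen.

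**Figure D3:**
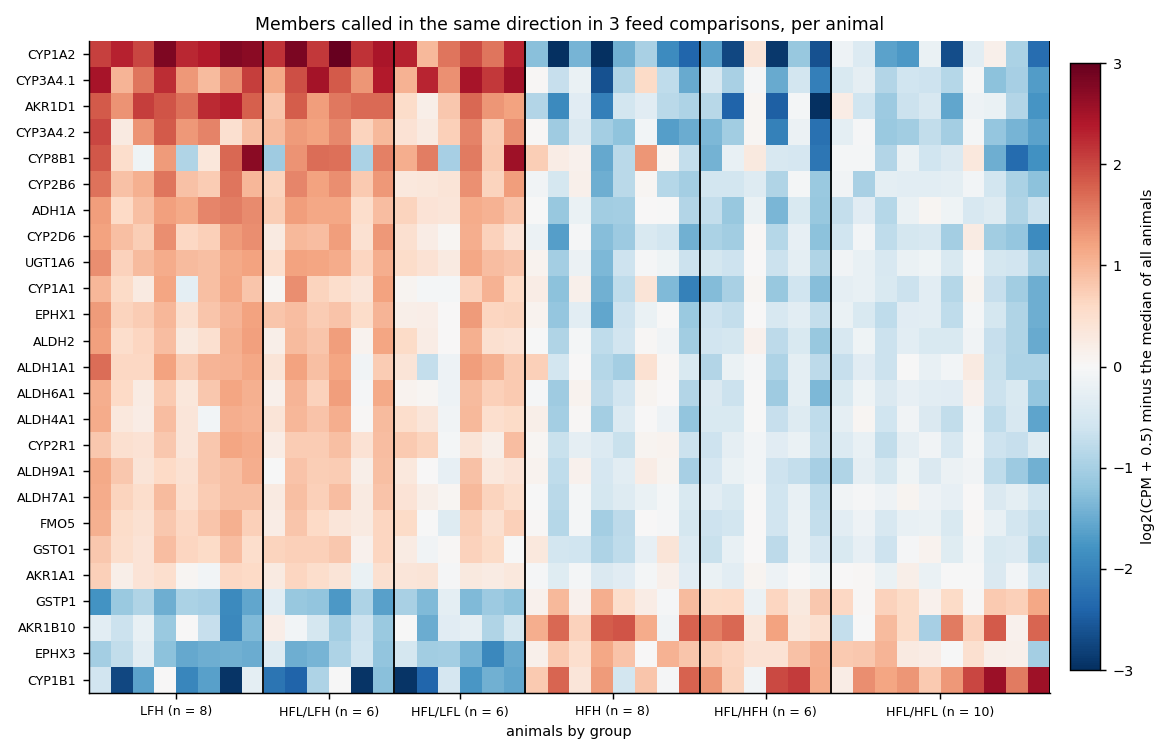
Level of 25 of the 26 members called in the same direction in the 3 feed comparisons (rows) in each of the 44 animals (columns, grouped), as log2(CPM + 0.5) minus the median of all animals. The 21 that were lower on high fat are mostly red in the 20 low fat animals and mostly blue in the 24 high fat animals, and the 4 at the bottom are the reverse.

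Because related enzymes often handle the same compounds, the balance between them within an animal was compared as a log2 ratio of counts with 0.5 added, which depends little on library size unless a count is near 0. All 18 pairs of members with the same symbol up to the last number were tested in the 3 feed comparisons with two-sided exact permutation tests over animals, 54 tests in all, with adjustment over the 54. Of these pairs 8 differed in all 3 comparisons and 5 in none. The smallest p that 8 animals against 8 allow is 0.000155. These tests were chosen after the levels had been seen, and a ratio shows unequal change, not which partner moved.

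The ratio of CYP1A2 to CYP1A1 was 1.32 ± 0.42 (SD, n = 8) in LFH and -1.60 ± 0.63 (n = 8) in HFH on the log2 scale, without overlap (difference -2.92, exact permutation p = 0.000155, adjusted 0.00135). The differences were -1.83 between HFL/HFL and HFL/LFL and -2.67 between HFL/HFH and HFL/LFH. Within CYP3A, the ratio of CYP3A4.1 to CYP3A4 was 0.70 ± 0.40 in LFH and -1.04 ± 0.47 in HFH (difference -1.74), and differed by -2.17 and -2.31 in the other comparisons, without overlap in any of them. CYP3A4.2 against CYP3A4 moved the same way (-1.42, -1.12 and -1.74), while CYP3A4.2 against CYP3A4.1 was called between HFL/HFL and HFL/LFL (1.05), with 0.32 and 0.58 in the others, not called. EPHX3 against EPHX1 rose by 3.95, 3.25 and 3.51, AKR1B10 against AKR1B1 by 2.91, 1.40 and 1.74, ALDH1A2 against ALDH1A1 by 1.40, 1.60 and 1.64, and GSTO2 against GSTO1 by 2.26, 2.2 and 3.13. GSTO2 had few counts, and in LFH animal 27, with 0, the added 0.5 sets the ratio of -15.8. GSTM3 against GSTM1 rose by 1.45 in HFH and 1.36 in HFL/HFH and differed by 0.06 between HFL/HFL and HFL/LFL (adjusted p = 0.922, exact permutation). The 3 pairs among the carboxylesterases differed in none of the comparisons.

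**Figure D4:**
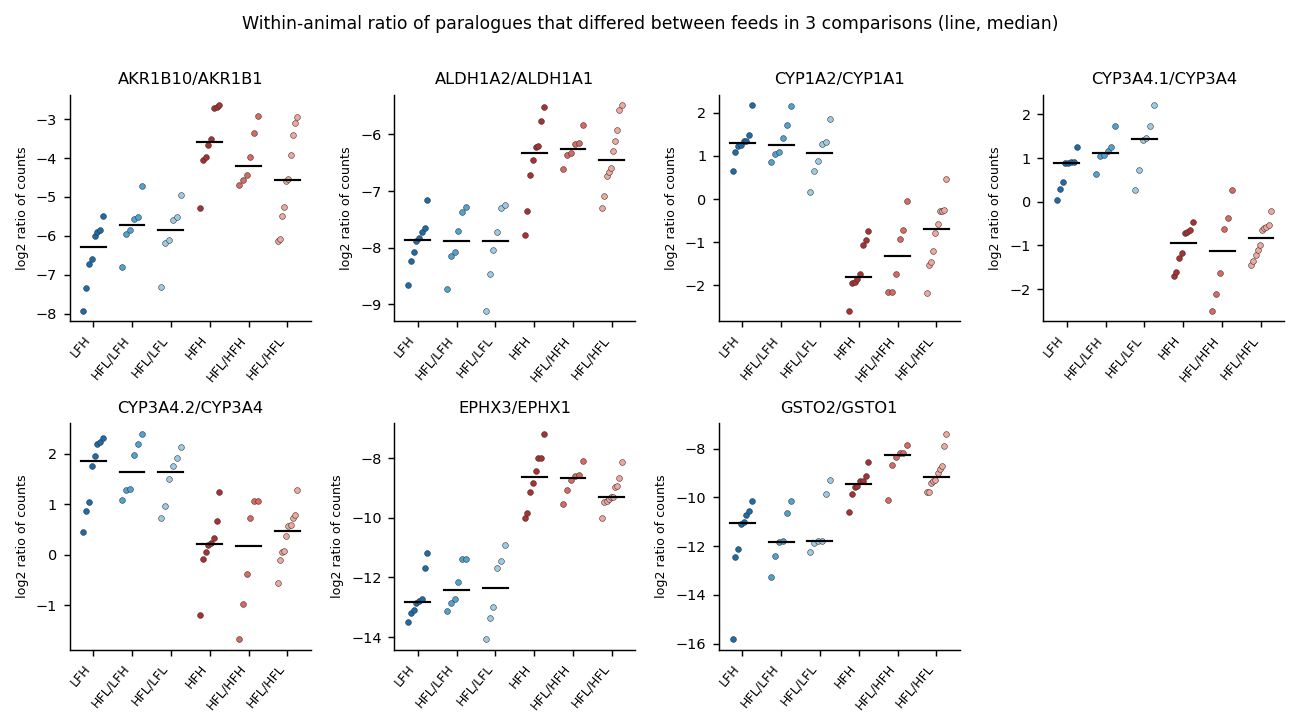
Within-animal log2 ratio of counts (y axis) for 7 of the 8 pairs of related members that differed in all 3 feed comparisons, per animal in the 6 groups (x axis), sorted within a group, with medians as lines. CYP1A2 to CYP1A1 had means of 1.32 in LFH and -1.60 in HFH, and CYP3A4.1 to CYP3A4 had means of 0.70 and -1.04.

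The effect of vitC level in the last 16 weeks was compared within each feed. Between HFL/LFL and HFL/LFH, 0 members were called by edgeR, limma voom or DESeq2, where edgeR called 0.219% of all genes (0.0645% lower), and 4 had an unadjusted p under 0.05, where 11% of all genes did. The 3 smallest p were those of CYP4X1 (log2 fold change -1.22, SE 0.50, edgeR adjusted p = 0.304), ALDH3B2 (0.85, SE 0.36, 0.338) and CYP20A1 (0.28, SE 0.13, 0.412). HFL/LFL animal 44 was at 3.14 CPM of ALDH3B2 and the other 5 at 0.593 to 0.912 CPM, and without it the log2 fold change was 0.24. Of 60 log2 fold changes 46 were negative, that is lower in HFL/LFL, with a median of -0.16, where the median of all genes was 0.00488. Among the 22 members that were lower on high fat, 20 were negative here, with a median of -0.26, and for 19 the 95% interval lay within 1 log2 unit of 0 on both sides. These 22 were chosen with the same low fat animals, so their direction here is not independent of that choice. CYP1A2 had a difference of -0.66 with an interval of -1.55 to 0.24, CYP3A4.1 0.13 (-0.59 to 0.85), UGT1A6 -0.25 (-0.64 to 0.14) and GSTP1 0.09 (-0.37 to 0.56).

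On the high fat diet, HFL/HFL and HFL/HFH differed in 0 members by the 3 tools (0.0129% of all genes by edgeR), and 2 had an unadjusted p under 0.05, CYP4X1 (-1.37, SE 0.42, edgeR adjusted p = 0.9997) and CYP2A13.1 (0.39, SE 0.18, 0.9997), where 3.37% of all genes had one. HFL/HFH animal 30 was at 9.01 CPM of CYP4X1 and no other HFL/HFH animal was above 2.98 CPM, and without it the log2 fold change was -0.64. CPM of HFL/HFL and HFL/HFH were without overlap for 0.0258% of all genes and for 0 members. The median log2 fold change was 0.02, with 33 of 60 positive. A test of whether the effect of feed differed between vitC levels called 0 members and 0% of all genes by edgeR, and 0 members by limma voom and DESeq2. An unadjusted p under 0.05 was found for ALDH3B2 (difference of log2 fold changes -1.20, SE 0.47) and CYP27A1 (0.52, SE 0.26), 2 members, where 8.23% of all genes had one. Without HFL/LFL animal 44 the value of ALDH3B2 was -0.59. For CYP1A2 that difference was 1.15 with an interval of -0.05 to 2.36, and it was 1.95 (edgeR adjusted p = 0.172) without HFL/HFH animal 20.

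**Figure D5:**
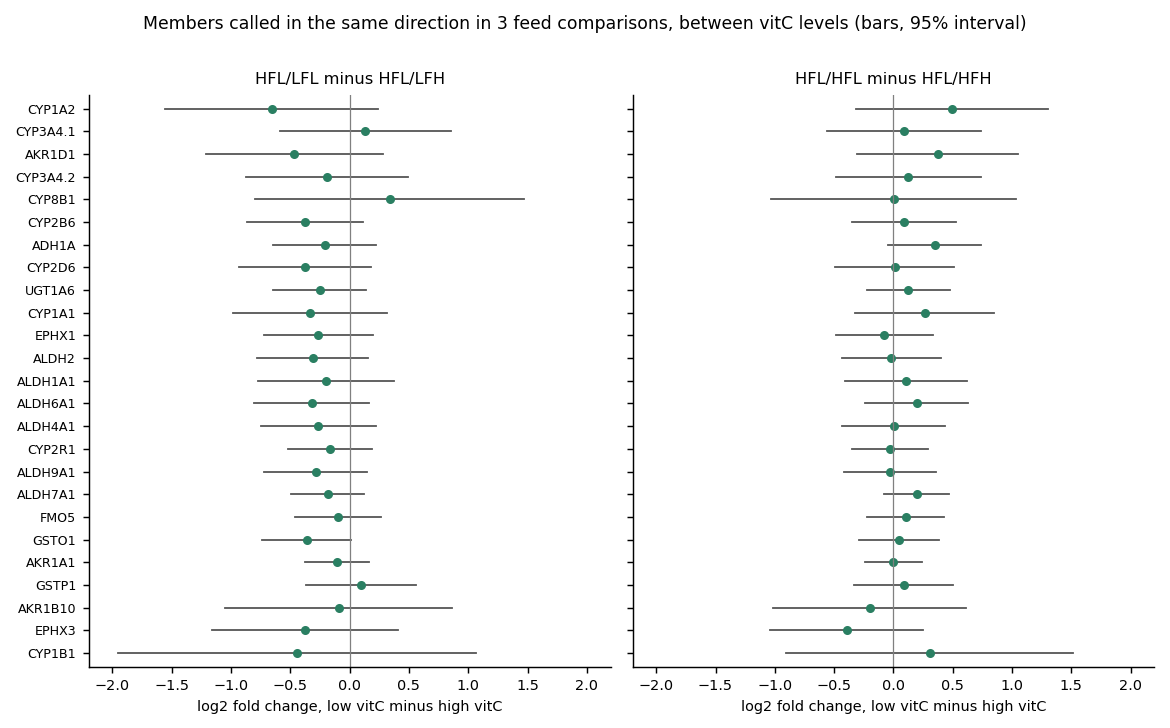
Log2 fold change of low against high vitC (x axis, points with 95% intervals) on the low fat diet (left) and the high fat diet (right) for 25 of the 26 members called in the same direction in the 3 feed comparisons (y axis). All intervals include 0, and in the left panel 19 of the 21 members that were lower on high fat lie left of 0.

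Animals that had changed to the low fat diet were also compared with LFH animals that never had high fat feed. HFL/LFH differed from LFH in 0 members by edgeR, limma voom and DESeq2 (0.361% of all genes by edgeR), and 7 members had an unadjusted p under 0.05, where 10.4% of all genes did. The 3 smallest p were those of GSTM3 (log2 fold change -0.50, SE 0.15, edgeR adjusted p = 0.156), ADH5 (-0.44, SE 0.14, 0.179) and AKR1C1 (-1.03, SE 0.34, 0.219). HFL/LFL differed from LFH in 4 members (6.67%), all lower, where 7.91% of all genes were called, 4.43% higher and 3.48% lower. These were ADH5 (-0.55, SE 0.14, edgeR adjusted p = 0.0113), GSTM3 (-0.55, SE 0.15, 0.0187), AKR1C1 (-1.24, SE 0.34, 0.0194) and GSTM1 (-1.13, SE 0.34, 0.0336). GSTM1 was at 1266 to 12614 CPM in HFL/LFL (median 7523) and AKR1C1 at 6.50 to 33.7 CPM (median 12.5), against 19.3 to 54.0 CPM in LFH (median 33.5). HFL/LFL animal 49 had the lowest level of all 4, and without it 0 of the 4 calls were left, while the log2 fold changes were -0.45 (ADH5), -0.44 (GSTM3), -1.08 (AKR1C1) and -0.91 (GSTM1). The call of GSTM1 was also lost without LFH animal 25 or 79 or HFL/LFL animal 53 or 44, and that of GSTM3 without animal 44. Both comparisons use the same LFH animals. In HFL/LFH the same 4 members had log2 fold changes of -0.44, -0.50, -1.03 and -0.77 (GSTM1, SE 0.34). Cell type markers also differed between HFL/LFL and LFH. Higher were 2 of 4 cholangiocyte, 2 of 6 macrophage, 2 of 11 T and B cell and 1 of 7 stellate cell and fibroblast markers. Lower were 1 of 9 hepatocyte, 1 of 5 pericentral and 1 of 3 periportal markers, and no endothelial marker was called. Their part in the results for the enzymes was not tested.

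Low vitC for 32 weeks on high fat, set against high vitC in HFH, called 0 members by edgeR (0.271% of all genes), 3 by limma voom and 1 by DESeq2, and 9 had an unadjusted p under 0.05, where 17.3% of all genes did. The 3 smallest p were those of CYP4X1 (-1.41, SE 0.40, edgeR adjusted p = 0.0852), ALDH3A1 (-2.78, SE 0.93, 0.138) and CYP1A2 (1.01, SE 0.37, 0.182, and a log2 fold change of 0.63 with limma voom). CYP4X1 was at 0.903 to 6.70 CPM in HFH and 0.458 to 3.13 CPM in HFL/HFL, with overlap.

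Lists of genes that serve these enzymes were compared in the same way, first in the 3 feed comparisons. All genes had 27.7% higher and 21.7% lower in HFH, 19.7% and 18.1% in HFL/HFL, and 19.4% and 16.5% in HFL/HFH. P450 enzymes need electrons from cytochrome P450 reductase, POR, which was lower by 1.41, 0.63 and 1.33 on the log2 scale (SE 0.19 to 0.22). PGRMC1, a haem-binding partner of P450, was lower by 1.16, 0.63 and 1.02 (SE 0.12 to 0.14). Of 5 genes on this list, 3 were lower in each comparison and CYB5R3 was higher between HFL/HFL and HFL/LFL (0.43, SE 0.12). The summed level of the 5 was 2949 to 4765 CPM in LFH and 1575 to 2185 CPM in HFH. Of the receptors and partners that control these enzymes, 3 of 12 listed were tested. RXRA, the partner of several xenobiotic receptors, was lower in all 3 comparisons (-1.14, -0.87 and -1.04, SE 0.11 to 0.13). AHR, the receptor that induces the CYP1 family, was lower in HFH (-0.52, SE 0.15) and differed by -0.09 and -0.11 in the others, and NR0B2 was not called. Of 6 genes that supply cosubstrates, 1 was higher and 1 lower in HFH, 1 higher and 2 lower in HFL/HFL, and 1 higher and 0 lower in HFL/HFH. GSR, the glutathione reductase, was lower in HFH (-0.49, SE 0.14) and HFL/HFL (-0.36, SE 0.14). UGP2, which makes UDP-glucose, was lower between HFL/HFL and HFL/LFL (-0.98, SE 0.24).

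Of 9 other conjugating enzymes tested, 1 was higher and 3 were lower in HFH, 2 were higher and 0 lower in HFL/HFL, and 2 were higher and 1 lower in HFL/HFH. All genes had 27.7% higher and 21.7% lower in HFH, 19.7% and 18.1% in HFL/HFL, and 19.4% and 16.5% in HFL/HFH. Whether any of the short lists here departs from these shares was not tested. ACSM3, a medium-chain acyl-CoA synthetase, was higher in all 3 (0.56, 0.83 and 0.53, SE 0.14 to 0.16), and the microsomal transferase MGST3 was lower in HFH (-0.44, SE 0.10). Of 6 drug transporters, 3 were higher and 1 was lower in each comparison. The efflux pump ABCC4 rose by 3.10, 2.24 and 2.53 (SE 0.26 to 0.29), ABCB1 by 2.425, 0.994 and 2.41 (SE 0.41 to 0.48), and ABCC5 by 1.39, 1.25 and 1.06 (SE 0.27 to 0.31), while the hepatocyte uptake carrier SLCO1B1 fell by 1.44, 1.15 and 1.35 (SE 0.23 to 0.27). Of 3 periportal hepatocyte markers 1 was lower in HFH, 2 in HFL/HFL and 1 in HFL/HFH. Of 6 macrophage markers 2 were higher in each comparison, and 2, 1 and 1 were lower. Of 5 endothelial markers 1 was higher and 1 lower in HFH, 4 were lower in HFL/HFL (median log2 fold change -0.62) and 1 was lower in HFL/HFH. Of 11 T and B cell markers 1 was higher and 2 were lower in HFH and in HFL/HFH, and 1 was lower in HFL/HFL. Outside the feed comparisons, 1 of 6 drug transporters and 1 of 9 hepatocyte markers were higher in HFL/LFL than in HFL/LFH (0.155% of all genes). Against LFH, HFL/LFL had 2 of 6 transporters higher, where 4.43% of all genes were. It had 2 of 5 electron donors and 2 of 9 other conjugating enzymes lower, where 3.48% of all genes were. The part of these genes and cell types in the differences between the enzymes was not tested.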

How the data were processed

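Liver RNA (left lateral lobe, poly(A)-selected, strand setting not stated) was sequenced from 44 animals in 6 groups taken from the diet label. The authors trimmed reads (Trimmomatic 0.38.0), mapped them with HISAT2 2.1.0 (Ensembl build Cav.Por.3.0), quantified them with StringTie 2.1.1 and assigned human orthologue symbols. They deposited whole-number counts per symbol without normalization (11967 symbols), and variance-stabilized log2 values made with DESeq2. How StringTie output became counts is not given in the sources used here. The log2 values chose the members and were used for outliers only, all tests used the counts.

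The main test was the quasi-likelihood F test of edgeR 4.0.16 (R 4.3.3, TMM, a mean for each of 6 groups) on the 7750 symbols that reached 200 counts in total, each comparison adjusted by Benjamini-Hochberg over all of them at 0.05. The standard error is the absolute log2 fold change over the root of F. Alternatives were RLE and upper-quartile scaling, 3 other filters, equal-count symbols taken once, only the groups compared, limma 3.58.1 (voom) and DESeq2 1.42.0, and each animal left out. Tests are two-sided. The tests were tried on simulated HFH and LFH counts for 7750 genes, of which 200 had a true log2 difference of 1, and edgeR recovered 127 (63.5%) with 7 false calls, limma voom 123 with 5 and DESeq2 134 with 14. The 200 went up and down in equal numbers and no other gene differed, whereas 49.3% of genes were called between HFH and LFH. The simulation therefore does not test the scaling. Within every group, animals differed beyond sampling noise (chi-square per gene 51.1 to 608 over 146 pairs), which does not tell biological from technical spread.

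Named members are textbook enzymes where measured, up to 12 per direction with the largest smallest change over the 3 feed comparisons, and members called or with the 3 smallest p in the other comparisons. Of other lists (receptors, electron donors, cosubstrates, other conjugating enzymes, transporters and cell type markers) up to 3 genes by the smallest p were named, others were named after their values were seen. Paralogue ratios and the split at 100 CPM were added after seeing the data. Members and lists were chosen with earlier results of these data known. Coordinates and sequences were not used, since the annotation at hand is of another build, and some genes are not reported here, though counts over all members and lists include those measured.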

Additional observations from a re-analysis of the deposited data

Results flagged for a closer look

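Among 25 members called in the same direction in the 3 feed comparisons, the variance-stabilized log2 values of each group were searched for an animal far from the others. This found 4 of 150 sets of member and group, where chance alone gives about 1 in 20, or 7.5. AKR1A1 was at 12.85 in HFL/LFL animal 44, with the other 5 animals at 13.13 to 13.26, and GSTP1 was at 11.3 in the same animal, with the others at 10.29 to 10.62. ALDH4A1 was at 12.09 (others 12.89 to 13.73) in HFL/HFL animal 75. GSTO1 was at 14.51 in HFL/LFH animal 43, with the others at 15.02 to 15.16.

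Of the 13 enzymes left out for low counts, 9 had more than 3 counts in some animal. The highest counts were 26 for CYP11A1 and 15 for CYP46A1, both in HFL/HFL animal 55, 9 for CYP17A1 in HFH animal 88 and 9 for SULT6B1 in HFL/HFL animal 52. They were 8 for CES2 in HFL/LFH animal 43, 8 for CYP4F3 in HFL/HFL animal 12, 6 for CES3 in HFL/HFH animal 20, 6 for AKR1B10.1 in HFL/HFH animal 30 and 4 for SULT1C3 in HFL/HFH animal 19. The highest LFH counts of these genes were 0 to 7.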

How the results depend on the processing

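The counts of members called kept within 1.5 times of their value under all 9 alternatives for HFH against LFH (38 to 44), HFL/HFL against HFL/LFL (31 to 34), HFL/HFH against HFL/LFH (32 to 39) and the members in the same direction in all 3 (25 to 27). Leaving out 1 animal gave 36 to 44, 30 to 34, 32 to 35 and 25 to 27. No call was found under any alternative between HFL/LFL and HFL/LFH, HFL/HFL and HFL/HFH, HFL/LFH and LFH, or for the interaction. Between HFL/LFL and LFH the count was 7 with DESeq2, 2 with only the groups compared in the fit and 0 to 6 with 1 animal left out (0 without HFL/LFL animal 49 and 2 without animal 44), and between HFL/HFL and HFH it was 3 with limma voom and 1 with DESeq2, for which the cause was not tested. Of 1124 values of single members (all calls in the 3 feed comparisons and the members named in the others) under these alternatives, 16 lost their call, 3 gained one and none turned, and of 1896 with 1 animal left out 63 lost it. With only the groups compared in the fit, ADH5, GSTM3 and GSTM1 lost their call between HFL/LFL and LFH. The losses in the feed comparisons other than HFH against LFH were of CYP27B1, CYP2A13, GSTO2 and NQO2 between HFL/HFL and HFL/LFL and of CYP2A13 and ALDH1L2 between HFL/HFH and HFL/LFH, and the gains of CYP4X1 and ALDH3A1 between HFL/HFL and HFH. No scaling moved the median of all genes by more than 0.0676 on the log2 scale. TMM, RLE and upper-quartile scaling all centre on the bulk of genes, so this does not test the scaling itself. TMM-scaled library sizes were below total counts in every LFH animal and above them in every HFH animal. Scaling by total counts alone was not tried, so how far the fold changes depend on this was not tested. No paired analysis was possible because the animal numbers of the groups do not overlap. Depth limits members near 3 counts, such as ALDH3A1, SULT2B1 and EPHX4.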
